A study of Mus musculus with 8 samples.

Results

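Histone acetyltransferases move an acetyl group from acetyl-CoA to lysines of histone tails, and the acetylated tails loosen chromatin and are read by bromodomain proteins. The enzymes fall into families that work in different complexes: the MYST enzymes, the GCN5-related enzymes, and p300 with its paralog CBP, which write H3K27Ac at promoters and enhancers. MOF, encoded by Kat8, is a MYST enzyme that acetylates histone H4.

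The genes described here were 10 histone acetyltransferase genes other than Kat8, taken by name, of 26180 annotated mouse genes: the MYST genes Kat5, Kat6a, Kat6b and Kat7, the GCN5-related genes Kat2a, Kat2b, Kat14 and Hat1, and Ep300 and Crebbp. The question was where MOF, the X-box factor Rfx2 and the promoter marks H3K4me3 and H3K27Ac lay along them. A gene was counted as having a peak at its promoter when a peak overlapped by at least 1 bp the window from 1 kb upstream to 100 bp downstream of any curated RefSeq transcription start, and in its gene body when a peak overlapped the rest of the annotated span.

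The chromatin was that of wild-type newborn mice, at postnatal day 0.5, and of the total epidermis, with no treatment and no mutant group. The MOF list came from ChIPseq, an antibody pull-down of fixed and sheared chromatin. Rfx2, H3K4me3 and H3K27Ac came from Cut&Run, where a nuclease bound to the antibody cuts out the target's DNA within the cells. Each of the 4 peak lists came from 1 library, so the values have no replicate error and no difference was tested. Back skin was treated with dispase, which frees the epidermis from the dermis, and the epidermal cells were used without a sort for keratinocytes, so that pigment and immune cells could be among them.

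The lists held 17546 MOF, 337 Rfx2, 27039 H3K4me3 and 30736 H3K27Ac peaks, with median widths of 562, 246, 764 and 526 bp. MOF regions carried a score of unstated scale, and the other peaks a fold enrichment over the local background of their own library. Both are therefore given with a percentile, the rank of the value from the lowest in its own list with ties averaged, and heights were not compared between lists. The lists hold no read counts, so no interval could be set on a value, and a gene without a peak had none called in that library. By the read numbers in the study's reporting summary, the Rfx2 library was the shallowest of those used, which bears on every absence of Rfx2 below. By the same summary the authors' own call of MOF peaks was shorter than the MOF list used, so that list may be another or a less strict call, and each MOF count, percentile and width rests on it. As a check of the tissue, an H3K4me3 peak lay at the promoter of 7 of 10 keratinocyte markers, with none at Krt1, Krt10 or Itga6. It was also present at 3 of 7 melanocyte, 3 of 6 fibroblast, 1 of 4 endothelial and 1 of 5 immune and Langerhans cell markers, and Cd207, Ptprc, Cd3e and Cd74 had none. Over all genes 54% had H3K4me3 at the promoter, so in lists this small the check is weak. H3K27Ac lay at 5 of 10 keratinocyte, 2 of 7 melanocyte and 1 of 6 fibroblast markers, against 44.1% of all genes. It was at 0 of 5 immune and Langerhans cell and 0 of 4 endothelial markers. The part of cells other than keratinocytes in the peaks below was not tested.

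All 10 acetyltransferase genes had H3K4me3 and H3K27Ac at the promoter, and 6 also had MOF: Kat5, Kat6a, Kat7, Ep300, Hat1 and Kat2b. MOF was called at no promoter of Kat2a, Kat6b, Kat14 or Crebbp. No member had an Rfx2 peak at the promoter or in the gene body. Over all annotated genes, a promoter peak was called in 23.7% for MOF, 1.21% for Rfx2, 54% for H3K4me3 and 44.1% for H3K27Ac. Among the genes with H3K4me3 at the promoter 42% had MOF. The members' 6 of 10 stood above that share by less than 2 genes, and at the Rfx2 share an absence from 10 genes says little about them. The joint pattern of MOF with both marks and without Rfx2 was held by 5306 genes (20.3%), and the pattern of both marks without MOF or Rfx2, seen at the other 4 members, by 5666 genes (21.6%).

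**Figure D1:**
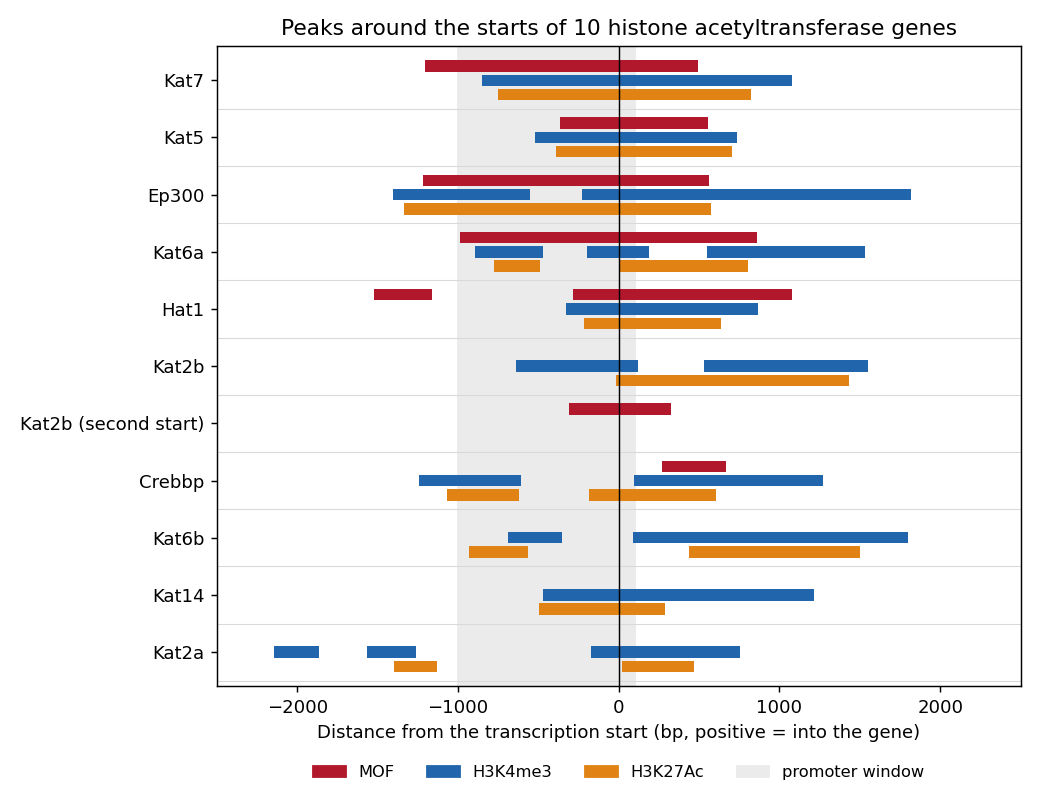
Peaks within 2.5 kb of the transcription start of each gene, drawn to scale along the direction of transcription (x axis, bp from the start), with MOF, H3K4me3 and H3K27Ac in separate colours and the promoter window shaded. MOF covers the start of 5 genes and overlaps both marks there, covers the second start of Kat2b with neither mark, and at Crebbp lies just past the window.

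The plot of peaks around the starts shows the shared layout. The MOF peaks at the 6 promoters had a median width of 1532 bp and a median score of 665.5, against 981 bp and 651 for the 5221 MOF peaks that overlapped any promoter. Of the 6, those of Kat5 (922 bp) and Kat2b (633 bp) were narrower than that median of all MOF promoter peaks, and the other 4 were wider. An H3K4me3 peak lay over a start in 8 of the 10 members, against 90.2% of the genes with H3K4me3 at the promoter. The exceptions were Kat6b and Crebbp, where peaks flanked the RefSeq starts on both sides. At Kat6b the larger H3K4me3 peak does hold 1 start of the GENCODE M21 basic transcripts, and at Crebbp no H3K4me3 peak holds one.

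Kat5 encodes TIP60, the catalytic subunit of a large complex that acetylates histones H4 and H2A in transcription and DNA repair (GRCm38, chr19:5603014-5610094, minus strand, 13 exons). Its starts lie at positions 5610094 and 5609744. The MOF peak at chr19:5609541-5610462 covered both starts with a score of 763 (percentile 73.5) over 922 bp. H3K4me3 spanned 1258 bp at 9.68-fold (percentile 80.6). H3K27Ac spanned 1096 bp at 10.4-fold (percentile 97.3). These were the highest H3K4me3 and the second highest H3K27Ac enrichments of the 10 promoters, and the 3 peaks overlapped one another at the head of a gene of 7.08 kb.

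Kat7 encodes HBO1, the MYST enzyme of replication origins and of transcribed genes (chr11:95271853-95310246, minus strand, 15 exons). Its MOF peak at chr11:95309752-95311451 was 1700 bp wide and had the highest score of the member promoters, 869 (percentile 81.8). H3K4me3 was broad at 1926 bp but of middling height, 6.07-fold (percentile 43.5). H3K27Ac covered 1578 bp at 8.02-fold (percentile 89.3). The start of Gm11520, on the opposite strand, lies 170 bp away, so these peaks belong as much to that gene's promoter as to that of Kat7.

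Kat6a and Kat6b encode MOZ and MORF, close paralogs that form complexes with BRPF scaffold proteins and acetylate histone H3. At Kat6a (chr8:22859546-22943259, plus strand, 18 exons) the MOF peak at chr8:22858560-22860405 was 1846 bp wide, wider than 89.4% of MOF promoter peaks or as wide, with a score of 571 (percentile 46.4). H3K4me3 was split there into 3 peaks: one of 4.74-fold upstream, one of 3.27-fold over the start, and one of 9.08-fold (982 bp) that began 550 bp inside the gene. The highest H3K4me3 of Kat6a thus lay outside the promoter window, in intron 1. The H3K27Ac peaks reached 6.04-fold (percentile 70.8) upstream and 5.89-fold downstream of the start.

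Kat6b (chr14:21499770-21672478, plus strand, 17 exons) had no MOF peak at its starts, and the nearest one lay 62891 bp inside the gene. Its H3K4me3 at chr14:21499858-21501571 was 1714 bp wide at 6.18-fold (percentile 44.6), and a weak upstream peak reached 2.53-fold. The H3K27Ac peak inside the promoter window of the RefSeq starts was the lowest of the 10 members, 3.12-fold (percentile 6.46). A higher one, 6.15-fold over 1065 bp (percentile 72.2), began 424 bp past these starts and so outside the window. It holds 1 GENCODE start, by which Kat6b would not be the lowest. Kat6b thus lacked the MOF peak of Kat6a under either annotation, while how its marks compared with those of Kat6a depended on the start taken. Without MOF, its upstream sequence is still rich in the GC box. The 250 bases before the start at 21499770 (GRCm38, chr14:21499520-21499769, plus strand, from RefSeq) are shown because they hold more GC boxes than the window of any other member examined, with GGGCGG or its reverse complement in capitals.
Kat6b: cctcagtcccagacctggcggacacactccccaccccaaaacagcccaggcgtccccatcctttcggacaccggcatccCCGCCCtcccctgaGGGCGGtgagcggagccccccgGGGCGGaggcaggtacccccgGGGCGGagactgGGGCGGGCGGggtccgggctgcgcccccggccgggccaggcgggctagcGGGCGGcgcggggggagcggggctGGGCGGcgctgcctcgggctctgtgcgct

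Kat2a and Kat2b encode GCN5 and PCAF, paralogs that serve as the acetyltransferases of the SAGA and ATAC coactivator complexes. Kat2a is compact (chr11:100704746-100712467, minus strand, 7.72 kb, 18 exons). Its H3K4me3 peak of 929 bp stood at 9.46-fold (percentile 78.7). Its H3K27Ac peak began 23 bp past the start and stood at 7.48-fold (percentile 85.7). Both marks of Kat2a thus ranked high in their lists, while MOF came no closer to the start than 18140 bp.

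Kat2b (chr17:53566971-53672721, plus strand, 106 kb, 18 exons) has curated starts at 53566971 and 53584126, and the marks and MOF were at different ones. At the first start, H3K4me3 of 764 bp reached 3.97-fold (percentile 10.7), the lowest best value of the 10 members. It was followed 531 bp inside the gene by a higher H3K4me3 peak of 6.52-fold, and H3K27Ac covered 1448 bp from the start at 4.78-fold (percentile 47.2). MOF was not called there. At the second start, the MOF peak at chr17:53583818-53584450 (633 bp) had a score of 379 (percentile 12.8), the lowest of the 6 member promoters, and overlapped neither mark. Kat2b is counted with MOF only through this start, which has no counterpart among GENCODE M21 basic transcripts, so the count is 5 of 10 without it.

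The sequences before the starts of Kat2a and Kat2b are printed to set the marked and the MOF-covered start side by side (RefSeq, GRCm38, 250 bases ending at the base before the start). Kat2a is chr11:100712468-100712717, minus strand. Kat2b is chr17:53566721-53566970 for the first and chr17:53583876-53584125 for the second start, both plus strand. Capitals mark the searched motifs, here the AP-1 motif TGANTCA and the reverse complement of CCAAT in Kat2b, and Kat2a and the second start have none of the motifs searched.
Kat2a: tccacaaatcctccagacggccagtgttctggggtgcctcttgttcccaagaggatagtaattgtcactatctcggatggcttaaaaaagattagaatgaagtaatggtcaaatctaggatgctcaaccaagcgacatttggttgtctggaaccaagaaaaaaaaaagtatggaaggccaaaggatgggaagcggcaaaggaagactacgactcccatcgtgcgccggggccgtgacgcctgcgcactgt
Kat2b first start: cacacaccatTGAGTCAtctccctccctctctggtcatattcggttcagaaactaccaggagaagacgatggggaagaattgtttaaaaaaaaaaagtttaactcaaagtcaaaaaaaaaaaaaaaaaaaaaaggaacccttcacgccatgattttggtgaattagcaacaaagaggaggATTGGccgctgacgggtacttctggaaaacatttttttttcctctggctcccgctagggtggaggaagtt
Kat2b second start: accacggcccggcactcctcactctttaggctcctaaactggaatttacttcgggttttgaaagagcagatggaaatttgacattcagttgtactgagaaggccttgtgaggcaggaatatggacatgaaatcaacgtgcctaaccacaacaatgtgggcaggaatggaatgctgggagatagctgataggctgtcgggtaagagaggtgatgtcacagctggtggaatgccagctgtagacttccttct

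The window of 300 bases around the second Kat2b start had a CpG ratio of 0.357 (CpG dinucleotides observed over those expected from base content), below the 0.672 of the first start and close to the median of 0.384 over 32851 promoters. Kat2a stood at 0.864.

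Kat14 and Hat1 are the remaining GCN5-related genes. Kat14 encodes a subunit of the ATAC complex (chr2:144369032-144407675, plus strand, 11 exons). Its H3K27Ac peak of 784 bp was the highest of the 10 members, 10.7-fold (percentile 97.8). H3K4me3 covered 1691 bp at 8.39-fold (percentile 69.2). The promoter H3K4me3 enrichment of Kat14 ranked behind those of Kat5, Kat2a and Hat1, and MOF came no closer to the Kat14 starts than 36486 bp. The start of Pet117, on the same strand, lies 49 bp upstream, had the same marks and no MOF, and cannot be told apart from that of Kat14.

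Hat1 acetylates newly made histone H4 before it is laid down on DNA (chr2:71389260-71441622, plus strand, 11 exons). MOF at chr2:71388974-71390337 was 1364 bp wide with a low score of 439 (percentile 23.8). H3K4me3 stood at 8.72-fold (percentile 72.5) and H3K27Ac at 7.32-fold (percentile 84.3). The centre of the Hat1 MOF peak lay 395 bp past the start, beyond the promoter window. The 250 bases before the start (chr2:71389010-71389259, plus strand, GRCm38, RefSeq) are shown because they hold 3 of the motifs searched, in capitals: in order, the NF-Y motif CCAAT as its reverse complement, then the GC box as GGGCGG, then the ETS motif CCGGAAG as its reverse complement.
Hat1: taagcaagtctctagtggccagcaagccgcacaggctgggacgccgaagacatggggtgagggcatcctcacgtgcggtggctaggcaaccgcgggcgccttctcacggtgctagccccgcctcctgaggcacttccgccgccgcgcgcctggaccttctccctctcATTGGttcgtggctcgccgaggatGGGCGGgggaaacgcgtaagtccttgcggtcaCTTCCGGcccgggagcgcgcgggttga

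Ep300 and Crebbp encode p300 and CBP, the coactivators whose catalytic domains write H3K27Ac, and the start of Ep300 lay inside a MOF peak while that of Crebbp lay just outside one. At Ep300 (chr15:81586214-81652077, plus strand, 31 exons) the MOF peak at chr15:81584997-81586773 was 1777 bp wide with a score of 760 (percentile 73.2). H3K27Ac ran over almost the same stretch, 1911 bp at 6.95-fold, wider than 99.4% of its list or as wide. H3K4me3 was low but broad: 4.47-fold (percentile 17.5) over 2047 bp, with a second peak of 3.16-fold upstream. All 3 were thus wide at Ep300, and only H3K4me3 ranked low in height.

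At Crebbp (chr16:4084048-4213404, minus strand, 31 exons) the marks sat on both sides of the start. H3K4me3 stood at 7.32-fold (percentile 58.3) over 1181 bp inside the gene and at 5.32-fold upstream. H3K27Ac reached 8.74-fold (percentile 92.8) in the upstream peak and 4.89-fold over the start. A MOF peak of 400 bp with a score of 314 (percentile 4.5) lay at chr16:4212736-4213135, from 269 to 668 bp past the start, centred in intron 1 and 169 bp beyond the promoter window, and overlapped both marks. Crebbp therefore counted as without MOF at the promoter by a narrow margin, and a window of 500 bp on either side of the start counted it and gave 7 of 10. No share of all genes was computed for that window. With 2.5 kb on either side, which also gave 7, the share of all genes was 27.8%.

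The upstream sequences of the paralogs are printed for comparison (RefSeq, GRCm38, 250 bases before the start, chr15:81585964-81586213, plus strand, and chr16:4213405-4213654, minus strand), with GGGCGG in capitals. Both are CpG-rich, and over the 300-base window the GC content was 72.3% in Ep300 and 82% in Crebbp, against a median of 52.7% over all promoters.
Ep300: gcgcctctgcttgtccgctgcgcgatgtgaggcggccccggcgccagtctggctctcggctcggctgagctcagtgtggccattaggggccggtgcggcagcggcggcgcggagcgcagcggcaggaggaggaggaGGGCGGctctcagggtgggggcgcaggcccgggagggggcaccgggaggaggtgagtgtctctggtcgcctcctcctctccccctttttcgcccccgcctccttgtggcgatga
Crebbp: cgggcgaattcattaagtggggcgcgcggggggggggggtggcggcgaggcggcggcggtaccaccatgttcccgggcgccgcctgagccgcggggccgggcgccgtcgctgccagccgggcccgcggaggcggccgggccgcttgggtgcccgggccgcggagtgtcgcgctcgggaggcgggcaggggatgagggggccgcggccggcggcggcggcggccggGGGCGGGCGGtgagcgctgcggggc

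**Figure D2:**
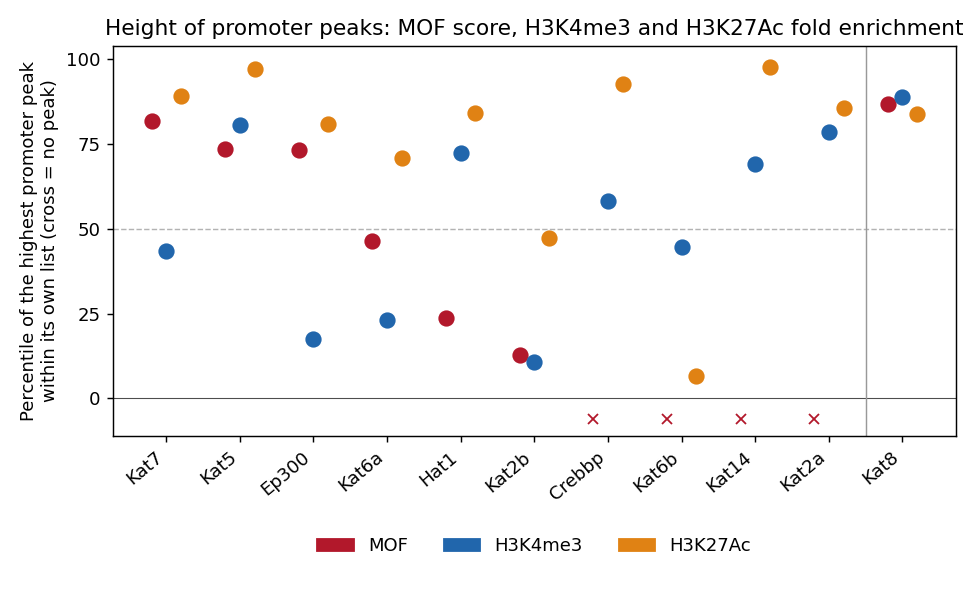
Percentile within its own list (y axis, %) of the highest MOF, H3K4me3 and H3K27Ac peak overlapping the promoter of each acetyltransferase gene and, right of the line, of Kat8, with crosses for no MOF peak. MOF percentiles ran from 12.8 at Kat2b to 81.8 at Kat7, those of H3K4me3 from 10.7 at Kat2b to 80.6 at Kat5, and those of H3K27Ac from 6.46 at Kat6b to 97.8 at Kat14.

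The plot of percentiles compares the members with Kat8 itself. Kat8 (chr7) had a MOF score of 987 (percentile 87) at its promoter, above all 6 members, with H3K4me3 at 11-fold (percentile 88.8) and H3K27Ac at 7.26-fold (percentile 83.9). Over the members, the best H3K4me3 enrichment ran from 3.97 to 9.68-fold with a median of 6.75, against a median of 8.04 over all genes with the mark. For H3K27Ac it ran from 3.12 to 10.7-fold with a median of 7.40, against 6.72. In order of MOF score the members were Kat7, Kat5, Ep300, Kat6a, Hat1 and Kat2b. Kat5 and Ep300 were 3 score units apart, and with 1 library the spread that would tell neighbours in this order apart is not known.

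The promoter windows, 250 bases before to 50 after each start, were searched on both strands for 9 motifs, with each overlapping match counted. RefSeq windows were at hand for 9 of the 10 members (12 windows), and Kat6a had no entry. The GC box GGGCGG was in 35.7% of all 32851 promoters and in a window of 6 members: Kat6b with 8 matches in each window, Kat5 with 3 at its second start, Crebbp with 2, and Ep300, Hat1 and Kat14 with 1 each. CCAAT, the NF-Y motif, was in 37.4% of promoters and in Kat7 with 2 matches and Hat1, Kat2b and Kat5 with 1 each. The ETS motif CCGGAAG, in 8.86% of promoters, was in Kat5 with 2 matches and Kat7 and Hat1 with 1 each. TGANTCA, in 7.81%, was in Kat2b. No window of a member held TATAAA (13.6% of promoters), GCATGCGC (2.71%), TGACGTCA (1.79%), AAGATGGCG (1.4%) or the X-box (1.53%). These are matches of letters and say nothing on whether a factor was bound.

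Peaks along the gene bodies were examined next. By overlap with any base outside the promoter windows, 8 members had MOF in the gene body (33.3% of all genes), 10 had H3K4me3 (57.1%), 10 had H3K27Ac (47.6%) and none had Rfx2 (0.649%). Many of these were promoter peaks that ran on into the gene, so peaks that touched no promoter window of the gene were also counted, a choice made after the values had been seen. On that count 5 members had MOF, with 10 peaks: Kat2b with 3, Kat6b, Ep300 and Crebbp with 2 each, and Hat1 with 1. H3K4me3 was left in 3 members with 4 peaks and H3K27Ac in 5 members with 9. Over all genes the shares were 17.5% for MOF, 0.183% for Rfx2, 20.3% for H3K4me3 and 20.5% for H3K27Ac.

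Gene length moved with these counts. The median span was 59113 bp for the members and 13453 bp for all genes, and the 5 members with such a MOF peak are 5 of the 6 longest. Per 100 kb of gene body, the members had 1.43 MOF, 0.572 H3K4me3 and 1.29 H3K27Ac peaks, against 0.63, 0.812 and 1.13 over all genes. The members thus stood above all genes in MOF density and below them in H3K4me3. These are 10 peaks in 699.1 kb from 1 library, and the difference was not tested.

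**Figure D3:**
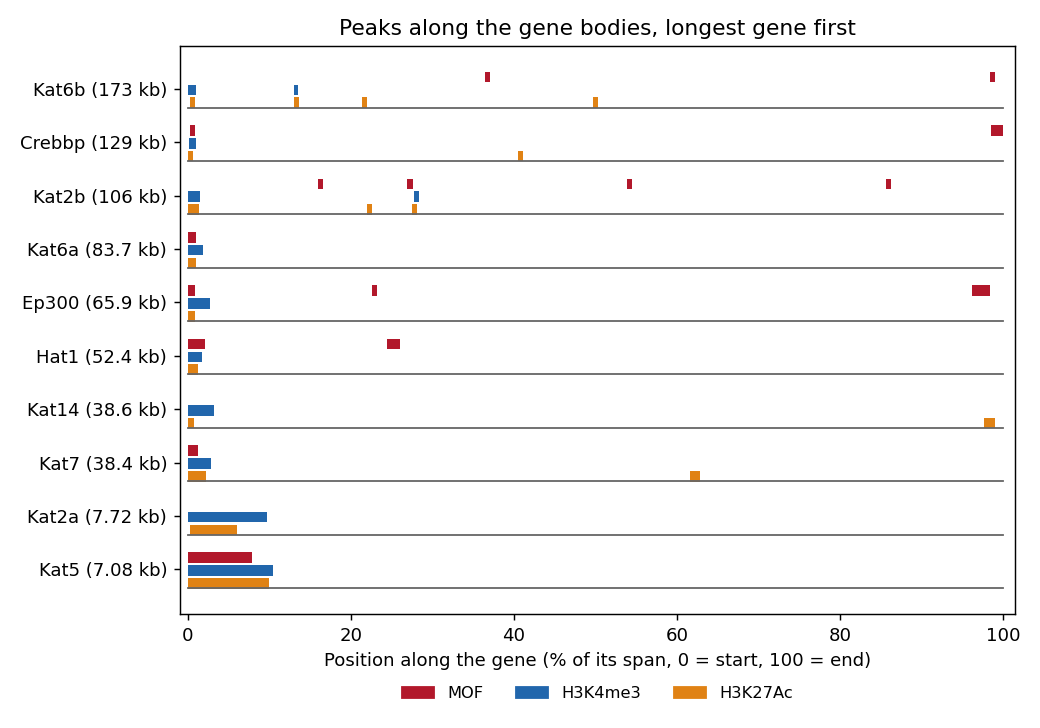
Peaks that overlap each acetyltransferase gene, placed along its span (x axis, % from start to end), longest gene at the top, with MOF, H3K4me3 and H3K27Ac in separate colours. Marks gather at the left end, while MOF also stands at the right end of Kat6b, Crebbp and Ep300 with neither mark beside it.

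As the plot of gene bodies shows, 3 of the MOF peaks lay in a last exon, at the other end of the gene from the marks. They were singled out after their values were seen. In Crebbp, MOF at chr16:4084072-4085934 (1863 bp, score 651, percentile 59.1) covered 86.6% of exon 31. In Ep300, MOF at chr15:81649588-81651044 (1457 bp, score 418, percentile 17) covered 44.5% of exon 31. In Kat6b, MOF at chr14:21669696-21670907 (1212 bp, score 443, percentile 24.1) covered 29.2% of exon 17. Each of the 3 peaks lay wholly within the last exon and overlapped neither H3K4me3 nor H3K27Ac, and each was centred on coding sequence.

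A last exon of 1.5 kb or more was present in 6 members, the other ones being Kat2b, Kat6a and Kat7, and so 3 of those 6 had a MOF peak of 1 kb or more in it. Over genes of at least 2 exons, 2.52% had any MOF peak in the last exon clear of the promoter and 0.882% had one of 1 kb or more, and over last exons of 1.5 kb or more the share was 0.958%. Of the 193 such peaks of 1 kb or more in all genes, 86 (44.6%) overlapped neither mark. Since these peaks were noticed first and counted afterwards, the shares describe how uncommon the position is and support nothing further. Kat6a, the paralog of Kat6b with the longest last exon of the members (5271 bp), had no MOF peak there.

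The middle 120 bases of each of these peaks are printed in the direction of the gene to show what kind of sequence MOF covered there, which was open reading frame with few CpG (GRCm38, RefSeq annotation, every CG in capitals). They are chr14:21670242-21670361, plus strand, chr15:81650257-81650376, plus strand, and chr16:4084944-4085063, minus strand.
Kat6b exon 17: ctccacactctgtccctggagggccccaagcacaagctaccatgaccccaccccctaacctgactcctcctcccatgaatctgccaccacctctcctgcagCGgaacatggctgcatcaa
Ep300 exon 31: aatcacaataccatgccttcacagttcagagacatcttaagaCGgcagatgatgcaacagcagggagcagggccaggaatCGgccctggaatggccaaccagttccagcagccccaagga
Crebbp exon 31: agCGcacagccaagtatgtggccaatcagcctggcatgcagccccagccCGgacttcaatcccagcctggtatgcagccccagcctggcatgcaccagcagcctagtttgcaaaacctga

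**Figure D4:**
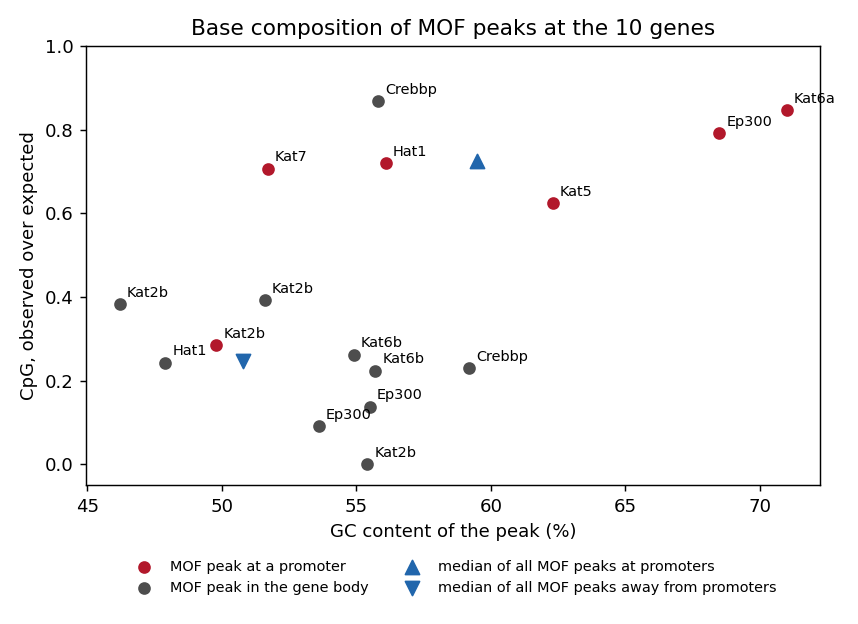
GC content (x axis, %) against the CpG ratio (y axis, observed over expected) of every MOF peak at the acetyltransferase genes, with promoter and gene body peaks in separate colours and triangles for the medians of the whole MOF list at and away from promoters. Promoter peaks other than that of Kat2b lie at 0.624 or above, and gene body peaks other than the one next to the Crebbp start lie at 0.392 or below.

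The plot of base composition sets these apart. The CpG ratio was 0.23 in Crebbp, 0.138 in Ep300 and 0.262 in Kat6b over the whole last-exon peak, at a GC content of 59.2, 55.5 and 54.9%. The promoter peaks of the members had 0.847 in Kat6a, 0.791 in Ep300, 0.72 in Hat1, 0.707 in Kat7 and 0.624 in Kat5, and only 0.284 in Kat2b. Over the list, the median was 0.726 for MOF peaks at promoters and 0.248 for those away from them. By this measure the MOF peak at the second start of Kat2b resembled the gene body peaks, and the MOF peak inside Crebbp intron 1 (0.869) resembled the promoter peaks. In the Kat6b last exon, 17.5% of the peak's 31-base words occurred elsewhere in the genome, against 5.61% in Ep300 and 0.873% in Crebbp.

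The other MOF peaks of the gene bodies were narrower. Ep300 had one over exon 2, at chr15:81601063-81601370 (308 bp), with a score of 1160 (percentile 91.9), the highest MOF score of any member and above that at the promoter of Kat8. It was coding, overlapped neither mark, and had a CpG ratio of 0.0909. Kat2b had a MOF peak of 733 bp with a score of 363 at chr17:53595439-53596171 in intron 1, which overlapped an H3K27Ac peak of 5.95-fold. It had others of 347 bp (score 598) in intron 2 and of 271 bp (score 885) in intron 11, with neither mark. The one in intron 11 was 91.9% repeat-masked sequence, with 58.1% of its 31-base words found elsewhere in the genome, against a median of 9.54% repeat-masked over the MOF list. Hat1 had a MOF peak of 846 bp (score 423) in intron 2, of which 57.6% was repeat-masked, and Kat6b one of 467 bp (score 312) in intron 2. The part of repeated sequence in these calls was not tested. Of the 10 MOF peaks, 8 overlapped neither mark, against 72.2% of the 6439 MOF peaks of this kind in all genes.

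Among the marks clear of a promoter window, the highest H3K4me3 was the peak of 9.08-fold in intron 1 of Kat6a described above, and the highest H3K27Ac was in Kat6b. In intron 2 of Kat6b, an H3K4me3 peak of 691 bp at 8.70-fold (percentile 72.3) lay with an H3K27Ac peak of 534 bp at 8.36-fold (percentile 91.1), at chr14:21522145-21522835. Both exceeded the enrichments at the Kat6b starts, and neither MOF nor an annotated start was there. Further H3K27Ac peaks of Kat6b reached 4.63-fold and 3.44-fold. Kat2b had H3K27Ac peaks of 3.60 and 5.95-fold in intron 1, the latter with H3K4me3 of 4.51-fold. Single H3K27Ac peaks of 4.57-fold lay in exon 8 of Kat7, of 4.15-fold in intron 2 of Crebbp and of 4.32-fold in the last exon of Kat14. Kat2a, Kat5, Kat6a, Ep300 and Hat1 had no H3K27Ac peak in the gene body clear of the promoter.

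Rfx2 was far from every member. The nearest Rfx2 peak was 51352 bp from the start of Kat6a, 92537 bp from that of Kat2a and 120325 bp from that of Kat5, and it was 453512 bp or more from the other 7. The whole Rfx2 list held 337 peaks.

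The members work in complexes, so the genes of their partners were counted in the same way. Of 60 partner genes, 33 had MOF at the promoter (55%), 57 had H3K4me3 (95%), 55 had H3K27Ac (91.7%) and 1 had Rfx2 (1.67%). Among the 57 with H3K4me3 the share with MOF was 57.9%, beside 60% of the members and 42% of all genes with H3K4me3. Of all genes, with or without the mark, 23.7% had MOF. By list, MOF was at the promoter of 12 of 17 genes listed with the TIP60 complex of Kat5 and 6 of 11 listed as partners of Kat6a, Kat6b and Kat7. It was at 9 of 16 SAGA genes and 2 of 6 ATAC genes of Kat2a, Kat2b and Kat14. For Hat1 it was at 2 of 3 histone chaperones, and for Ep300 and Crebbp at 2 of 7 partners. Each gene was listed once, so subunits shared with ATAC, such as Tada3 with MOF at its promoter, count under SAGA only. Srcap, of a separate complex, was counted under TIP60, and Ing1 and Ing2, better known from deacetylase complexes, as MYST partners. Each of these also had MOF, so the shares depend on the lists. The deacetylase genes, whose products remove acetyl groups, had MOF at 5 of 11 (45.5%), with both marks at 10 each. The partner genes with MOF had a median best score of 870, above the 665.5 of the members and the 656 of all genes with MOF at the promoter.

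**Figure D5:**
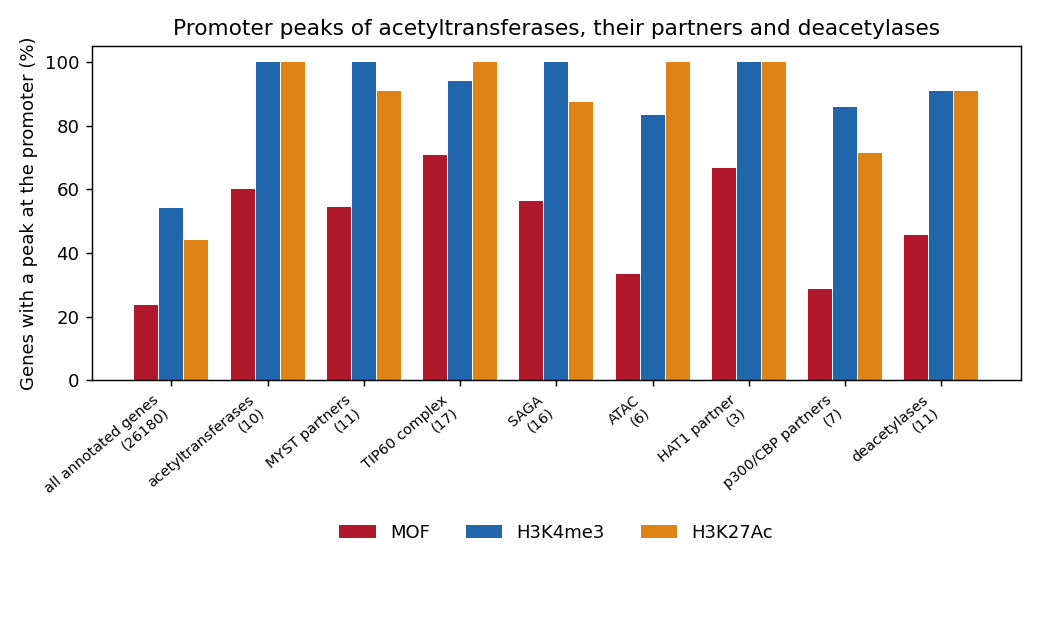
Share of genes (y axis, %) with a MOF, H3K4me3 or H3K27Ac peak at the promoter, for all annotated genes, the 10 acetyltransferase genes, the partners by complex and the deacetylases, with the number of genes in brackets. The marks stand at 71.4% or above in every list but that of all genes, while MOF runs from 28.6% for the partners of p300 and CBP to 70.6% for the TIP60 complex.

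The plot of shares by complex shows the spread between lists, each of which is small. Of the partner and deacetylase promoters, Rfx2 was called only at that of Ing1, an ING family reader of H3K4me3 listed here with the MYST partners although it is better known from deacetylase complexes, at 7.33-fold beside MOF and both marks. No H3K4me3 was called at the promoters of Crtc2, a CREB coactivator, of Mrgbp, a TIP60 subunit, of Tada2a, the ATAC adaptor, or of the deacetylase Hdac9. For the partner genes these absences rest on the window, since with 2.5 kb on either side of the start 60 of the 60 had H3K4me3, against 58% of all genes. That window was not examined for Hdac9. The highest MOF scores at partner promoters were 1749 at Tada3, an adaptor of both GCN5 complexes, 1505 at Cited2, a p300 and CBP ligand, 1376 at the ATPase Ruvbl1, 1367 at Supt3 of SAGA and 1210 at Epc1 of TIP60. Each of these exceeded the MOF score at every member promoter.

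Likeness was measured as the mean difference of percentiles over 4 values of the highest promoter peaks: MOF score, H3K4me3 enrichment and width, and H3K27Ac enrichment. Only peaks that overlapped a RefSeq promoter window entered. The higher H3K4me3 peaks of Kat6a and Kat2b and the higher H3K27Ac peak of Kat6b, past the window, did not, and their matches depend on this. A gene without MOF entered at 0, so that a shared lack of MOF counted as full likeness in that value, as it did for the matches of Kat2a, Kat14, Crebbp and Kat6b. The most alike of the partner and deacetylase genes was Atxn7 for Kat2a (2.36 percentage points), Meaf6 for Kat14 (3.42) and Epc1 for Kat7 (4.73). For Kat5 it was Mbip (5.17), for Crebbp Meaf6 (6.34), for Kat6a Ing5 (6.65), for Kat6b Rbbp7 (6.8), for Ep300 Cited2 (7.98) and for Hat1 Hdac1 (8.5). Kat2b had the least close match, Crtc3 at 10.2. Epc1 shared with Kat7 a high MOF score and a broad H3K4me3 peak (2001 bp at Epc1), and Cited2 shared with Ep300 low and wide H3K4me3 under high MOF.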

How the data were processed

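MOF ChIPseq and Cut&Run peak lists from newborn mouse epidermis were used as deposited. Per the labels, the authors aligned reads to mm10 with Bowtie2 and called peaks with MACS2, library by library, with the versions in the study's reporting summary. MOF reads were single-end and called without a fragment model, and the others were paired-end and called on whole fragments. Control libraries and excluded regions were not given in the sources used here. The deposited MOF list gives a score per region, whose scale is not stated, and no fold or p-value. The deposited Rfx2, H3K4me3 and H3K27Ac lists give a fold enrichment, a ratio to local background. They also give −log10 p-values and q-values by the authors' peak caller. The fold gave all heights and percentiles, and the q-value ranked the peaks where only the higher part of a list was kept. The labels give the H3K4me3 list to the repeat library, but its own name does not say so, and the library behind it is therefore uncertain. H4K16Ac, H3K4me1 and the remaining libraries of the 8 samples were not analysed here.

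Peaks were placed on GRCm38.p6, the assembly of mm10, with curated RefSeq transcripts, and 0 peaks ended beyond a chromosome. Overlaps were computed in Python (3.11.15) and checked on simulated data against bedtools (2.31.1). Expected CpG was the product of C and G counts over length, soft-masked bases were counted as repeats, and words of 31 bases as repeated when found elsewhere on either strand. The 10 genes, the partner, deacetylase and marker lists and the motifs were chosen from general knowledge with earlier results of these data known. Named beside the 10 genes are Kat8, genes sharing a start region within 1 kb, and, of the partner and deacetylase lists, those with Rfx2, those without H3K4me3 at the promoter, the 5 highest MOF scores and the most alike gene for each member, and other items named were chosen after their values were seen. With 1 library per list no test was made. Alternatives were the window, the annotation, the peak centre and the higher 50% of each list, by score for MOF and by q-value for the others. A planned comparison of paralog proteins was not made.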

Additional observations from a re-analysis of the deposited data

How the results depend on the processing

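Under 58 alternatives of 12 counts, 45 stayed within 1.5 times the reported value and 13 did not. Part of the 45 could not have moved, namely the Rfx2 counts of members and the wider windows for marks already at every member. The higher 50% of the marks was ranked by q-value, and it left H3K4me3 at the promoter of 8 members. Of these, Ep300, Kat7 and Kat6b had their highest promoter peaks at fold percentiles of 17.5, 43.5 and 44.6. A cut by fold would have dropped them, so the tally depends on the ranking taken. The tally is therefore no measure of how firm the counts are. Keeping the higher 50% of the MOF list left MOF at the promoter of 3 members in place of 6 (Kat5, Kat7 and Ep300), with the share of all genes at 14.6% in place of 23.7%, and in the gene body of 5 in place of 8. Taking the peak centre gave H3K4me3 at the promoter of 6 members in place of 10 and MOF in the gene body of 5, and among partner genes 16 with MOF in place of 33, 29 with H3K4me3 in place of 57 and 27 with H3K27Ac in place of 55. Counting the gene body only beyond 2.5 kb of every start gave 5 members for MOF, 2 for H3K4me3 and 5 for H3K27Ac, in place of 8, 10 and 10. Peaks clear of the promoter, an alternative added after seeing the data, gave 5, 3 and 5, against 17.5%, 20.3% and 20.5% of all genes. The last of these leaves out, by construction, peaks that run on from the promoter, and the cause of the other shifts was not tested. Among the alternatives, a share of all genes was computed only for the 2.5 kb promoter window, the higher 50% at promoters and peaks clear of the promoter. Whether the other shifts are particular to the members or partners is therefore not known. Kat2b lost its MOF promoter call with 1 start per gene and with GENCODE M21 starts, Crebbp gained one with windows of 500 bp or more on either side, and Kat2a, Kat6b and Kat14 had none under any setting tried. Rfx2 stayed at 0 members throughout, which no setting tried could change, since the nearest Rfx2 peak was 51352 bp from a member start and none lay in a gene body. No paired analysis was possible because a single list per antibody was used. Without read counts, whether a missing peak is an absence or a matter of depth cannot be told apart.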

Other observations

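Some peaks stood just outside the acetyltransferase genes and entered none of the counts of members above, though they are part of the list totals. A MOF peak of 756 bp with a score of 294 lay at chr19:5601898-5602653 (GRCm38), past the 3′ end of Kat5 and over the region of the start of Rnaseh2c at 5601873, with H3K4me3 of 11.6-fold and H3K27Ac of 9.60-fold. These marks ranked at percentiles 91.8 and 95.6 of their lists. A MOF peak of 359 bp with a score of 260 (percentile 0.881) lay 163 bp upstream of the Hat1 promoter window with neither mark, and 55.2% of it was repeat-masked. Upstream of Kat2a, H3K4me3 of 3.01-fold and H3K27Ac of 3.29-fold lay near the start of Hspb9 at 100713929, and neither overlapped MOF.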
